A study of Homo sapiens with 32 samples.

Results

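The genes of sterol and fatty acid synthesis were followed in clones of MCF10A, an immortalized but non-tumorigenic line of human breast epithelium, during treatment with the cytokine TGFβ1. The 28 genes were taken by symbol from a named list, and 27 of them were matched among the 17788 genes of the count table, while ACACA, which encodes an acetyl-CoA carboxylase, was not analysed here. All 27 passed the low-count filter, as did 14865 genes of the table. By role they comprised 7 genes of the mevalonate pathway, 11 genes of the steps from squalene to cholesterol, 4 regulators and transport genes, and 5 genes of fatty acid synthesis and desaturation.

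The 32 RNA-seq libraries fell into 8 groups of 4. WT libraries came from the clones 27 and 2 with an intact JUNB gene, and mut libraries from the clones 1 and 65, which the labels call JUNB KO or JUNB mut. JUNB is a subunit of the transcription factor AP-1. In each genotype 1 group received solvent, and the other groups received 5 ng/ml TGFβ1 for 6, 24 or 72 h. All lines were derived from single cells, and the mut clones carry extended deletions that, by the study's account, leave a smaller JUNB polypeptide. Each group therefore holds 2 clones with 2 replications each. A clone with its replication number, such as 27-2, is called a series, and p-values measure the spread between these libraries of 2 clones per genotype. The labels give the solvent groups a time of 0 h, whereas the study's methods describe solvent exposure over the longest treatment time. All cells grew with horse serum, EGF, insulin, hydrocortisone and cholera toxin.

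Library totals ranged from 39702412 to 54651906 counts, and a value of 3 counts corresponded to 0.0549 to 0.0756 CPM, which is the read count scaled to the library total. The mammary epithelial markers KRT5, KRT14, KRT17, KRT18, TP63, CDH1 and ITGB4 were all detected, with group means of 3653 to 7720 CPM for KRT5. Of the 8 markers of other cell types, PTPRC, CD3E, VWF and ALB stayed at or under 0.140 CPM in all libraries, and PECAM1 and CDH5 were not analysed here. CD68 ranged from 5.64 to 24.4 CPM and MYH11 from 3.13 to 6.59 CPM, and the 6 markers together summed to 14.01 to 17.7 CPM in WT solvent, 22.3 to 30.1 CPM in WT at 72 h, 9.96 to 11.1 CPM in mut solvent and 13.3 to 14.6 CPM in mut at 72 h. Their part in the results was not tested. The 4 libraries of the series 27-2 stood apart from all others on the third principal component, at -56.3 to -44.0 against -17.0 to 37.0. The library mut solvent 1-2 had a score of -39.4 on the first component, against -65.7 to -61.8 in the rest of that group. Calls of the synthesis genes that were lost without either whole series are named with their values.

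Cells build cholesterol from acetyl-CoA through mevalonate, isoprenoid diphosphates, squalene and lanosterol, and they build fatty acids from the same precursor. The genes of both routes are known targets of the SREBP transcription factors, which are encoded by SREBF1 and SREBF2. When sterols are scarce, SCAP escorts the SREBP precursors from the endoplasmic reticulum to the Golgi for cleavage, and INSIG proteins hold this complex back when sterols are abundant. Because targets such as HMGCS1, IDI1 and INSIG1 share this control, their transcripts are known to move together.

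Promoter sequences were available for 24 of the 28 genes, as windows from 250 bases before to 50 bases after the start of transcription (RefSeq, GRCh38.p14). They are shown here for the gene of the sterol regulator itself and for 3 genes described in detail further on. In these windows the sterol regulatory element TCACNCCAC, searched on both strands, occurred in 1 of 24 genes, SREBF2, which is 4.17%, against 1.13% of all 35116 promoters of the same length. Its classical form TCACCCCAC overlaps this pattern and gave the same single gene, against 0.43% of all promoters. The NF-Y box CCAAT, searched on both strands, was present in 18 of 24 genes, which is 75%, against 34.61% of all promoters. Capitals mark the motif letters, with ATTGG being CCAAT on the other strand. The stretches lie at chr22:41832927-41833025 on the plus strand, chr11:65111753-65111847 on the plus strand, chr10:1049187-1049369 on the minus strand and chr7:155297663-155297757 on the plus strand, and each is written in the direction of transcription.
SREBF2: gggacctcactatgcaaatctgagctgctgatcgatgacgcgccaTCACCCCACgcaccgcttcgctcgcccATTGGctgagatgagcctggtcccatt
TM7SF2: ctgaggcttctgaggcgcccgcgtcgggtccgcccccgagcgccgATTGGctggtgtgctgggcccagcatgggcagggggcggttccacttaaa
IDI1: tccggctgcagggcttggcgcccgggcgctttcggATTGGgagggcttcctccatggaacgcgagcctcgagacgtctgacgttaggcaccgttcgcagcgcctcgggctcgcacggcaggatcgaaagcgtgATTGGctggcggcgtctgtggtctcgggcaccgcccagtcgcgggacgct
INSIG1: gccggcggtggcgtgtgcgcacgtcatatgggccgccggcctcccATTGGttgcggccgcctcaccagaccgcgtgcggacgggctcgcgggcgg
In SREBF2 the sterol element starts 133 bases and the NF-Y box 106 bases before the start of transcription. In TM7SF2 the NF-Y box starts at 74 bases and in INSIG1 at 170 bases before the start, while IDI1 holds 2 boxes. The windows of HMGCS1, PMVK, CYP51A1, DHCR7, SREBF1 and FADS1 held neither motif. These matches describe letters only.

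The synthesis genes were well expressed. In WT solvent, CPM per kilobase of exon ranged over 84.1-fold between genes. SCD, the enzyme that desaturates stearoyl-CoA, was highest at 341 CPM per kilobase, followed by ACLY, which supplies cytosolic acetyl-CoA, at 162.0 and the fatty acid synthase FASN at 152. The lowest were HSD17B7, which acts in the removal of sterol methyl groups, at 4.06, TM7SF2, a sterol reductase, at 4.78 and the desaturase FADS2 at 5.75 CPM per kilobase. HSD17B7 has a near-identical pseudogene, so that its counts are uncertain. The mean log2 CPM over the 27 genes took the WT values 7.37 ± 0.06, 7.42 ± 0.09, 7.37 ± 0.06 and 7.21 ± 0.07 (SD, n = 4), ordered from solvent to 72 h. The mut values were 7.22 ± 0.17, 7.24 ± 0.16, 7.28 ± 0.09 and 7.28 ± 0.18. With TMM factors the WT values were 7.29 ± 0.07, 7.42 ± 0.10, 7.47 ± 0.06 and 7.29 ± 0.10 and the mut values 7.15 ± 0.17, 7.22 ± 0.17, 7.29 ± 0.09 and 7.28 ± 0.17, so that the WT level at 24 h lay above solvent and that at 72 h did not lie below it under this scaling. In bulk RNA, fewer cells of a type and less RNA per cell cannot be told apart. Over the same groups, the mean of 14 proliferation genes fell from 6.99 ± 0.15 in WT solvent to 5.85 ± 0.27 at 24 h and stood at 6.53 ± 0.28 at 72 h, and in mut libraries it was 6.83 ± 0.08, 6.40 ± 0.14 and 6.69 ± 0.27 at these states.

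**Figure D1:**
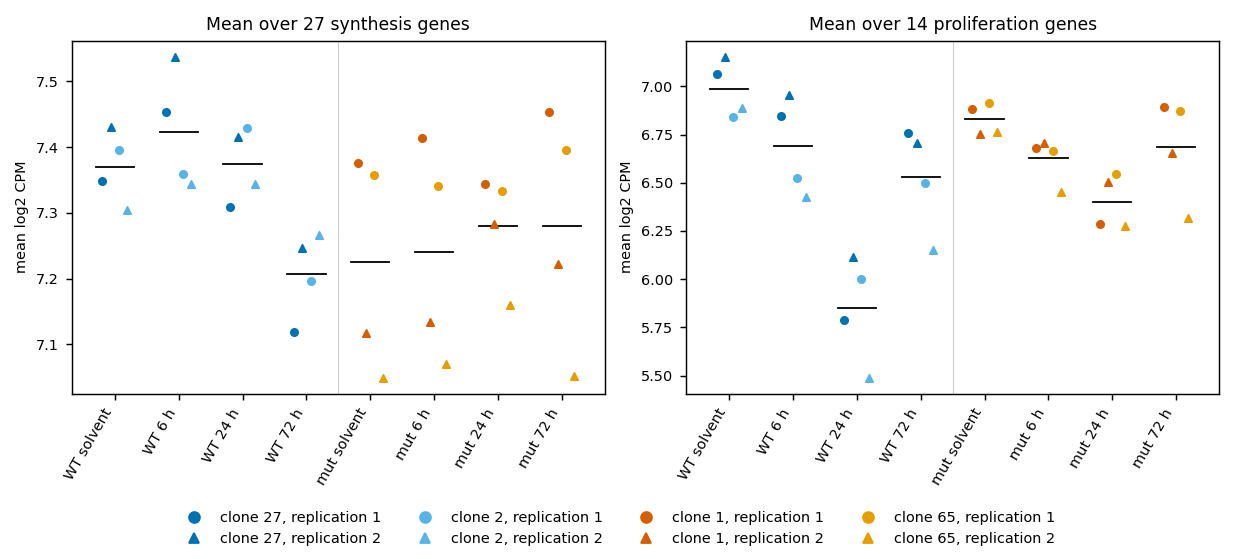
Mean log2 CPM in each library over the 27 synthesis genes (left) and over 14 proliferation genes (right), by group. Colours stand for clones, circles for replication 1, triangles for replication 2 and bars for group means. In mut groups the triangles of the left panel lie below the circles at every state, and the WT proliferation mean is lowest at 24 h.

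With library-size scaling, no synthesis gene passed the limma-voom test after 6 h of TGFβ1. In WT cells at 6 h, 0 of 27 genes were called by limma-voom at an adjusted p-value under 0.05, with 2 at an unadjusted p-value under 0.05, and 17.0% of all genes tested were called. Other fits called 1 gene with TMM factors, 1 with edgeR, 2 with DESeq2 and 2 when the series was blocked. In mut cells at 6 h, 0 of 27 were called, against 7.00% of all genes called, and 1 had an unadjusted p-value under 0.05. TMM factors and the series block each gave 0 calls there. Shares of all genes under the other fits at 6 h are not given here, and their counts are not read as a result about the synthesis genes.

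After 24 h, 9 of 27 genes were called in WT cells. STARD4, a sterol carrier protein, FDPS, which makes farnesyl diphosphate, and MSMO1, a methylsterol oxidase, rose, and 14.1% of all genes did. TM7SF2, FASN, PMVK, MVK, FDFT1 and SREBF1 fell, as did 38.0% of all genes. At 72 h STARD4 alone was called higher, against 13.9% of all genes, and 8 genes were called lower, against 38.4%. These were TM7SF2, FASN, SREBF1, SREBF2, PMVK, MVK, FDFT1 and CYP51A1. In mut cells, MSMO1 and STARD4 rose at 24 h, against 6.75% of all genes, and FASN fell, against 17.1%. At 72 h STARD4, MSMO1 and FADS1 rose, against 7.81%, and TM7SF2 and SREBF2 fell, against 16.3%. Within a genotype, the comparisons of different times share the solvent libraries.

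The split between higher and lower calls depended on the scaling, because under scaling by library size the median of all genes was itself shifted. It was -0.18 log2 in WT at 24 h, -0.19 in WT at 72 h, -0.10 in mut at 24 h and -0.09 in mut at 72 h. The median of the 27 genes was 0.08, -0.05, 0.08 and 0.07 in these comparisons, which lay above the median of all genes by 0.26, 0.14, 0.17 and 0.16 log2. With TMM factors, which remove most of the shift, WT cells at 24 h had 13 genes higher, against 23.5% of all genes, and 3 lower, against 23.2%. The 13 genes were IDI1, FDPS, SQLE, LSS, CYP51A1, MSMO1, NSDHL, EBP, SC5D, DHCR7, INSIG1, STARD4 and SCD, that is 11 enzymes of both routes beside INSIG1 and STARD4, with changes of 0.23 to 0.62 log2. With the same factors, WT cells had 3 higher and 5 lower calls at 72 h (21.5% and 23.3% of all genes), and in mut cells 5 higher and 0 lower at 24 h (9.26% and 8.04%) and 4 higher and 2 lower at 72 h (10.7% and 9.91%). The 3 called higher in WT at 72 h, MSMO1, STARD4 and FADS1, were also called higher in mut at 72 h, beside SC5D. No gene was called in opposite directions by both scalings. The falls of MVK, FDFT1 and SREBF1 at 24 h and of MVK, FDFT1 and CYP51A1 at 72 h were not called with TMM factors.

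**Figure D2:**
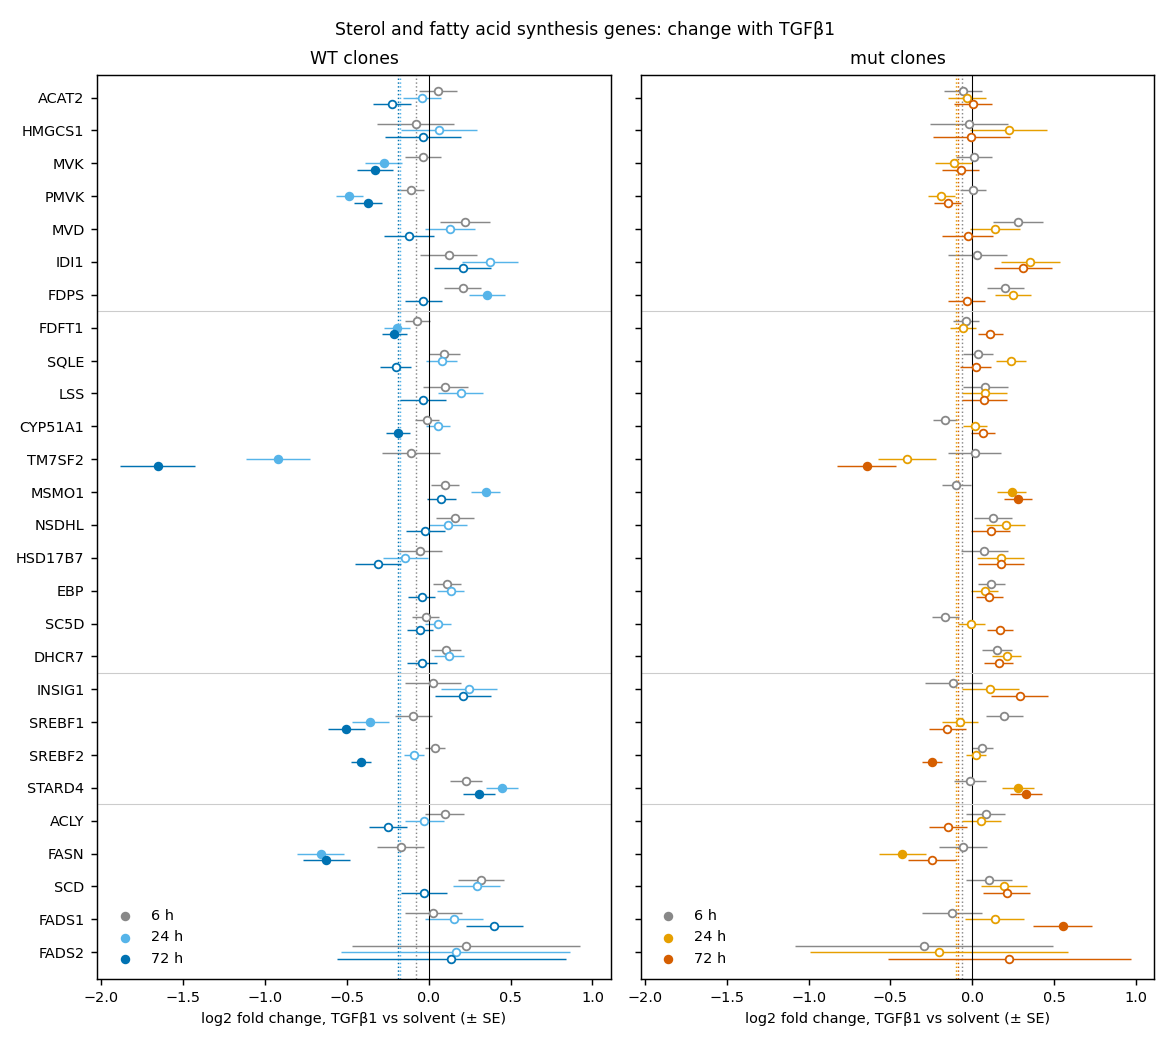
Log2 fold change of each gene after 6, 24 and 72 h of TGFβ1 against solvent, in WT clones (left) and mut clones (right), by limma-voom with library-size scaling. Filled points were called at an adjusted p-value under 0.05, horizontal lines are SE, dotted lines are the medians of all genes tested and grey lines separate the roles. TM7SF2 shows the largest fall in WT clones, at -1.66 after 72 h.

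Blocking on the series, which compares each treated library with the solvent library of the same clone and replication, raised the counts of calls. It called 4 genes higher and 12 lower in WT at 72 h (16.3% and 43.6% of all genes), 8 higher and 3 lower in mut at 24 h (9.89% and 25.1%), and 8 higher and 2 lower in mut at 72 h (11.0% and 22.9%). Beyond the calls above, these included falls of ACAT2, SQLE, HSD17B7 and ACLY in WT at 72 h, of -0.20 to -0.31 log2, where the median of all genes was -0.19. They also included rises of IDI1, INSIG1 and FADS1 in WT at 72 h, of 0.21, 0.21 and 0.39 log2, and rises of IDI1, INSIG1 and SCD in mut at 72 h, of 0.21 to 0.32 log2. With the block and TMM factors together, WT at 72 h had 5 genes higher and 5 lower (25.1% and 27.7% of all genes). The falls of ACAT2, SQLE, HSD17B7 and ACLY were then not called, and the rises of IDI1, INSIG1 and FADS1 were. Without the series 27-2, 2 genes were higher and 6 lower in WT at 72 h (13.2% and 36.9% of all genes).

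Among the mevalonate enzymes, PMVK and MVK, the kinases of mevalonate, were lower after TGFβ1 in WT cells. PMVK had 57.9 ± 3.80 CPM in solvent, 41.5 ± 3.30 CPM at 24 h and 44.7 ± 2.26 CPM at 72 h (SD, n = 4). It fell by 0.48 ± 0.08 and by 0.37 ± 0.08 log2 (SE, limma-voom adjusted p-values 1.89e-05 and 0.000475). In mut cells PMVK had a solvent level of 58.7 ± 2.75 CPM and one of 53.1 ± 5.74 CPM at 72 h, a change of -0.15 ± 0.08 that was not called. MVK fell by 0.28 ± 0.11 at 24 h and 0.33 ± 0.11 at 72 h in WT cells, and the call at 24 h was lost in 5 of the 8 fits without 1 library, with values of -0.32 to -0.23. FDPS rose in WT cells from 224 ± 21.5 CPM to 286 ± 17.2 CPM at 24 h, by 0.36 ± 0.11 log2 (adjusted p-value 0.00904), and then fell to 219 ± 19.9 CPM at 72 h. ACAT2, HMGCS1, MVD and IDI1 were not called against solvent with library-size scaling and no block, with values of -0.22 to 0.37 log2. FDPS shares 693 exon bases with RUSC1-AS1, MVK 225 with MMAB and ACAT2 454 with TCP1, and the library kit keeps no strand, so that reads there cannot be told apart.

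Between squalene and cholesterol, TM7SF2 had the largest fall of the 27 genes in WT cells. TM7SF2 (ENSG00000149809, chromosome 11, 65111845 to 65116384, plus strand, GENCODE release 44) encodes a reductase of the sterol double bond at the step after lanosterol demethylation, a step that LBR also catalyses. In WT solvent it had 15.6 CPM in 27-1, 12.2 in 27-2, 20.3 in 2-1 and 17.1 in 2-2. At 6 h the values were 14.8, 10.5, 17.2 and 18.5 CPM in the same order, at 24 h 8.09, 6.73, 10.2 and 9.62 CPM, and at 72 h 5.05, 4.05, 6.39 and 5.30 CPM. The WT libraries of 24 h lay below all solvent libraries and those of 72 h below all of 24 h. In mut solvent it had 19.0 CPM in 1-1, 14.3 in 1-2, 22.9 in 65-1 and 16.7 in 65-2, at 6 h 22.4, 17.6, 19.2 and 14.7 CPM, at 24 h 12.3, 16.7, 14.7 and 11.5 CPM, and at 72 h 12.1, 10.1, 13.4 and 10.8 CPM. The mut libraries of 72 h lay below those of mut solvent, and those of 24 h overlapped with them. TM7SF2 fell in WT cells by 0.92 ± 0.20 log2 at 24 h and 1.66 ± 0.23 at 72 h (SE, limma-voom adjusted p-values 0.000269 and 7.24e-07), and in mut cells by 0.65 ± 0.18 at 72 h (0.00842). The mut change at 24 h was -0.40 ± 0.18 (0.0985), and with the series block it was called at -0.41.

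The interaction asks whether the response to TGFβ1 differed between genotypes. At 72 h TM7SF2 was the single gene of 27 with a called interaction, 1.01 ± 0.29 log2 (SE, limma-voom adjusted p-value 0.0206), and 9.40% of all genes had a higher and 2.92% a lower interaction. The call was lost without the library WT 72 h 27-2, which left 0.89, and when the replications of a clone were summed, which left 1.01 with an adjusted p-value of 0.0831. With TMM factors the interaction was 0.93 and called. The series block called 6 genes higher and 0 lower (17.1% and 6.33% of all genes), namely TM7SF2, HSD17B7, SREBF1, FDFT1, CYP51A1 and SQLE, at 0.22 to 1.00 log2. With TMM factors beside the block, TM7SF2, HSD17B7 and FDFT1 were called higher and 0 genes lower (9.82% and 8.90%), and SREBF1, CYP51A1 and SQLE were not. At 24 h 0 of 27 interactions were called, against 9.65% of all genes called, and 1 had an unadjusted p-value under 0.05. TMM factors also gave 0 at 24 h, and the series block called PMVK, TM7SF2 and HSD17B7 higher and 0 lower, against 14.1% and 4.64%. Adding TMM factors to the block left 0 calls at 24 h, against 7.89% of all genes called higher and 7.45% called lower. An unadjusted p-value under 0.05 was found for 3 genes, a limit at which no share of all genes is given here. At 6 h 0 of 27 were called by limma-voom, against 0.0740% of all genes called, and 0 had an unadjusted p-value under 0.05. TMM factors and the series block gave 0 calls as well.

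The other 10 genes of these steps moved less. MSMO1 rose in WT cells from 404 ± 25.3 to 515 ± 55.3 CPM at 24 h, by 0.35 ± 0.09 log2 (limma-voom adjusted p-value 0.00147), and stood at 427 ± 47.1 CPM at 72 h. At 72 h MSMO1 was not called in WT cells with library-size scaling. It was called higher there with TMM factors, edgeR and DESeq2, which all depart from that scaling. In mut cells it rose from 343 ± 20.5 CPM to 405 ± 24.6 CPM at 24 h and 416 ± 14.9 CPM at 72 h, by 0.24 and 0.28 log2. The mut call at 24 h was lost in 6 of the 8 fits without 1 library and that at 72 h without mut solvent 65-1 or 65-2, with values of 0.26 to 0.32 at 72 h. FDFT1, the squalene synthase, fell in WT cells by 0.20 ± 0.08 at 24 h and 0.21 ± 0.08 at 72 h, which is about as far as the median of all genes, and the calls were lost in 5 and 2 of 8 fits without 1 library, at -0.24 to -0.16. CYP51A1, the lanosterol demethylase, fell in WT at 72 h by 0.19 ± 0.07, again as far as that median, and the call was lost in 6 of 8 fits without 1 library, at -0.22 to -0.16. With TMM factors CYP51A1 rose by 0.23 at 24 h. With library-size scaling and no block, SQLE, LSS, NSDHL, HSD17B7, EBP, SC5D and DHCR7 were not called against solvent in either genotype, with values of -0.31 to 0.24 log2 over all times.

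Both SREBP genes were lower after 72 h of TGFβ1 in WT cells. SREBF2 (ENSG00000198911, chromosome 22, 41833105 to 41907306, plus strand) encodes the SREBP that acts mainly on sterol genes. In WT solvent its level was 441 CPM in 27-1, 355 in 27-2, 439 in 2-1 and 449 in 2-2, and at 72 h it was 300.2, 295, 329 and 333 CPM. At 6 h it was 437, 406, 433 and 446 CPM, and at 24 h 428, 355, 406 and 391 CPM. The libraries of 72 h lay below all WT libraries of the other states. In mut cells SREBF2 had 478 CPM in 1-1, 451 in 1-2, 497 in 65-1 and 479 in 65-2 in solvent, and 402, 401, 395 and 406 CPM at 72 h. At 6 h the mut values were 486, 485, 512 and 505 CPM and at 24 h 484, 483, 469 and 498 CPM. The mut libraries of 72 h, too, lay below all mut libraries of the other states. SREBF2 fell by 0.42 ± 0.06 log2 in WT and 0.25 ± 0.06 in mut cells at 72 h (SE, limma-voom adjusted p-values 2.03e-06 and 0.00351). With TMM factors the falls were 0.25 and 0.17 log2 and both were called.

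SREBF1 (ENSG00000072310, chromosome 17, 17810399 to 17837002, minus strand) encodes the SREBP proteins that act mainly on fatty acid genes, and it shares 556 exon bases with RAI1 on the other strand. In WT solvent it had 179 CPM in 27-1, 143 in 27-2, 209 in 2-1 and 229 in 2-2, at 6 h 197, 159, 168 and 179.7 CPM, at 24 h 154, 140.4, 139 and 151 CPM, and at 72 h 124, 118, 142 and 147 CPM. The groups of 24 and 72 h overlapped with solvent only through the low value of 27-2 in solvent. SREBF1 fell in WT cells by 0.36 ± 0.11 log2 at 24 h and 0.50 ± 0.11 at 72 h (limma-voom adjusted p-values 0.00935 and 0.000509), and the call at 24 h was lost without WT solvent 2-2, at -0.26. With TMM factors the fall at 72 h was 0.34 and called. In mut cells the level was 260.1 CPM in 1-1, 205 in 1-2, 223 in 65-1 and 220.3 in 65-2 in solvent, 291, 260.2, 251 and 238 CPM at 6 h, 223, 262, 186 and 197 CPM at 24 h, and 214, 215, 198 and 188 CPM at 72 h. No mut change against solvent was called with library-size scaling, with values of 0.20, -0.07 and -0.15 log2.

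INSIG1 (ENSG00000186480, chromosome 7, 155297776 to 155310235, plus strand) holds SREBP precursors in the endoplasmic reticulum. It had 128, 138, 123 and 110.4 CPM in WT solvent in the order 27-1, 27-2, 2-1 and 2-2, 128, 149, 125 and 109 CPM at 6 h, 132, 145, 164 and 151 CPM at 24 h, and 142, 145, 139.6 and 149 CPM at 72 h. The WT groups of 6 and 24 h overlapped with solvent, and the libraries of 72 h lay above it, with a change at 72 h of 0.21 ± 0.17 log2 that was not called without the block and was called with it. In mut solvent INSIG1 had 125 CPM in 1-1, 90.8 in 1-2, 119 in 65-1 and 71.1 in 65-2, and at 72 h 169, 102, 147 and 84.5 CPM. At 6 h these values were 114, 83.2, 103 and 71.6 CPM and at 24 h 122, 102, 114.5 and 91.1 CPM. At every state both libraries of replication 1 were above both of replication 2 in mut cells. STARD4, which moves sterols between membranes, rose from 73.8 ± 5.28 CPM in WT solvent to 100.4 ± 6.98 CPM at 24 h and 91.1 ± 3.69 CPM at 72 h, by 0.45 ± 0.10 and 0.31 ± 0.10 log2 (limma-voom adjusted p-values 0.000303 and 0.00942). In mut cells it rose from 65.05 ± 5.56 CPM to 79.3 ± 11.3 CPM and 81.9 ± 10.3 CPM, by 0.28 and 0.33 log2, and TMM factors called all of these rises. The mut calls were lost in 5 and 2 of 8 fits without 1 library, at 72 h without mut 72 h 1-2 or mut solvent 65-1, with values of 0.23 to 0.39. STARD4 shares 124 exon bases with STARD4-AS1.

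Of the fatty acid genes, FASN was lower after TGFβ1. FASN (ENSG00000169710, chromosome 17, 82078338 to 82098294, minus strand) had 1311 CPM in 27-1, 1091 in 27-2, 1579 in 2-1 and 1688 in 2-2 in WT solvent. At 6 h it had 1389, 1274, 1183 and 1130.0 CPM, at 24 h 786, 850.1, 1015 and 899.8 CPM, and at 72 h 815, 796, 1012 and 1020 CPM. All WT libraries of 24 and 72 h lay below those of solvent. In mut solvent FASN had 1641, 1154, 1498 and 1170 CPM in the order 1-1, 1-2, 65-1 and 65-2, at 6 h 1531, 1353, 1281 and 1065 CPM, at 24 h 1046, 1112, 977 and 892 CPM, and at 72 h 1355, 1119, 1300 and 851 CPM. The mut libraries of 24 h lay below those of solvent, and those of 72 h overlapped. FASN fell in WT cells by 0.66 ± 0.14 log2 at 24 h and 0.63 ± 0.14 at 72 h (limma-voom adjusted p-values 0.000325 and 0.000614). In mut cells it fell by 0.43 ± 0.14 at 24 h (0.0305), a call that was lost without mut solvent 1-1 or 65-1 and without mut 24 h 1-1, 65-1 or 65-2, with values of -0.50 to -0.33, and with TMM factors.

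FADS1 and FADS2, the desaturases of polyunsaturated fatty acids, lie side by side on opposite strands and share 490 exon bases, so that reads there cannot be told apart. FADS1 had 51.1 CPM in 1-1, 56.5 in 1-2, 55.3 in 65-1 and 48.8 in 65-2 in mut solvent and 84.9, 80.8, 81.4 and 64.1 CPM at 72 h, with no overlap. At 6 h it had 48.6, 49.9, 49.4 and 46.1 CPM and at 24 h 60.2, 51.1, 63.4 and 58.2 CPM. It rose in mut cells at 72 h by 0.55 ± 0.18 log2 (limma-voom adjusted p-value 0.0237), and the call was lost without mut solvent 1-1 or 65-2 and without mut 72 h 1-1 or 1-2, with values of 0.51 to 0.64. In WT cells FADS1 had 60.3 CPM in 27-1, 97.9 in 27-2, 65.4 in 2-1 and 65.9 in 2-2 in solvent, 58.9, 109, 65.4 and 64.2 CPM at 6 h, 62.9, 118, 70.5 and 73.7 CPM at 24 h, and 81.5, 124, 83.8 and 89.4 CPM at 72 h. The change at 72 h was 0.40 ± 0.17 (0.0559), and 0.41 ± 0.09 without the series 27-2 (0.000441). This WT rise was also called with TMM factors, edgeR, DESeq2, the series block and when the replications of a clone were summed.

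FADS2 separated the series 27-2 from all others. In that series it had 166, 233, 216 and 179 CPM, ordered from solvent to 72 h. The other 12 WT libraries ranged from 21.0 to 31.5 CPM and the 16 mut libraries from 17.0 to 43.0 CPM. Without a block the SE of its change was large, at 0.14 ± 0.70 log2 in WT at 72 h, and FADS2 was not called in any comparison by limma-voom with library-size scaling. The series block called it higher in mut cells at 72 h than at 24 h, by 0.43 ± 0.11, and the block with TMM factors also called it higher in WT at 6 and 24 h and in mut at 72 h against solvent. FADS2 was added to the genes described by library after its values were seen. SCD had 1790.0 ± 99.9 CPM in WT solvent, 2233 ± 136 CPM at 6 h, 2191 ± 139 CPM at 24 h and 1779 ± 362 CPM at 72 h. Its changes of 0.32, 0.29 and -0.03 log2 were not called with library-size scaling, while the series block called SCD higher at 6 and 24 h, DESeq2 did so at 6 h, and TMM factors, edgeR and DESeq2 did so at 24 h. ACLY changed by -0.25 log2 in WT at 72 h, which the series block called, and by -0.15 in mut at 72 h.

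**Figure D3:**
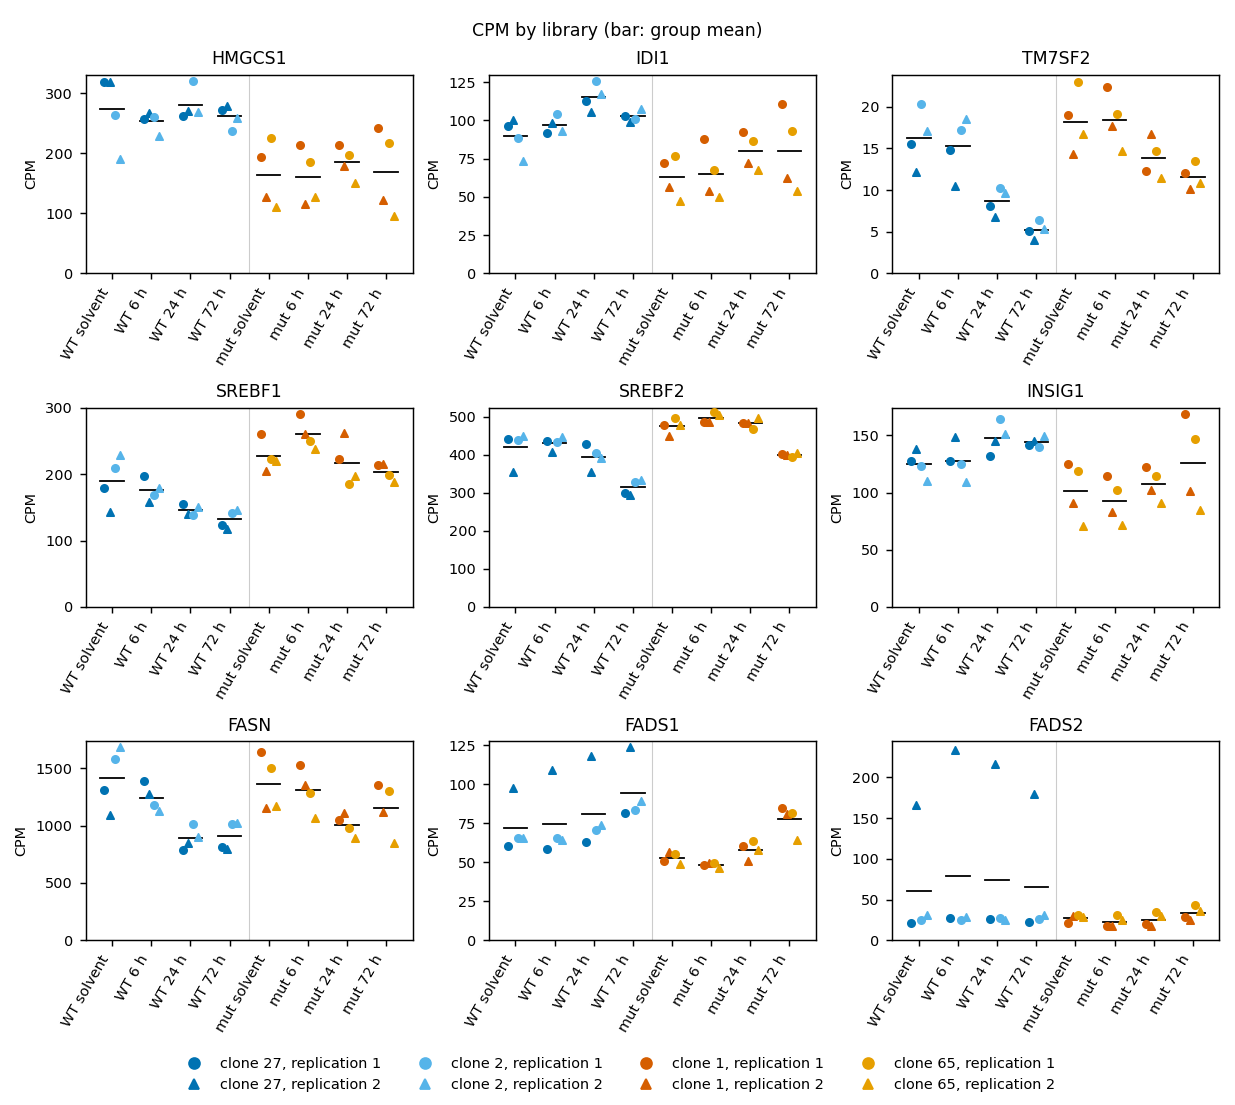
CPM of 9 synthesis genes in each library, by group, with axes that start at 0. Colours stand for clones, circles for replication 1, triangles for replication 2 and bars for group means. TM7SF2 steps down from solvent to 72 h in WT clones to 4.05 to 6.39 CPM, and FADS2 reaches 166 to 233 CPM in the series 27-2 alone.

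Between 24 and 72 h, the called genes fell. In WT cells FDPS, CYP51A1 and SREBF2 were lower at 72 h than at 24 h, against 3.15% of all genes, and 0 genes were higher, against 4.68%. The falls were 0.39 ± 0.11, 0.24 ± 0.07 and 0.33 ± 0.06 log2 (limma-voom adjusted p-values 0.0294, 0.0393 and 0.00203). Those of FDPS and CYP51A1 were lost in 5 and 6 of 8 fits without 1 library, at -0.44 to -0.34 and -0.31 to -0.19. TMM factors called 6 lower (3.69% of all genes) and 0 higher (4.09%), with SQLE, TM7SF2 and MSMO1 in addition, and the series block 8 lower (8.29%) and 1 higher (9.12%). In mut cells SREBF2 alone was lower, by 0.27 ± 0.06 (0.0232), against 0.619% of all genes, and 0 genes were higher, against 0.693%. The series block called 3 lower (4.78%) and 2 higher (4.66%), and the limma-voom call was lost in 6 of the 8 fits without 1 library, at -0.28 to -0.26.

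The comparison of genotypes asked whether the synthesis genes differed with JUNB before and during treatment. In solvent, HMGCS1 and IDI1 were lower in mut cells, against 6.32% of all genes, and SREBF2 was higher, against 6.38%. At 6 h, HMGCS1, IDI1, MSMO1, SC5D, STARD4 and FADS1 were lower (10.0% of all genes) and SREBF1 and SREBF2 higher (11.3%). At 24 h, HMGCS1, IDI1, MSMO1, SC5D, INSIG1 and STARD4 were lower (12.2%) and PMVK, TM7SF2, SREBF1 and SREBF2 higher (24.7%). At 72 h HMGCS1 was lower (13.2%) and PMVK, CYP51A1, TM7SF2, DHCR7, SREBF1 and SREBF2 were higher (26.0%). The median of all genes was shifted by 0.09 log2 at 24 h and by 0.10 at 72 h in this comparison, and TMM factors did not call PMVK and DHCR7 at 72 h or IDI1 in solvent, and called IDI1 at 72 h. When the replications of a clone were summed, SREBF2 was not called in solvent and at 6 h. Nor were SC5D at 6 and 24 h and PMVK and DHCR7 at 72 h. That fit called SQLE, NSDHL and INSIG1 lower at 6 h, FADS1 at 24 h and IDI1 at 72 h in addition. Leaving out 1 library ended the calls of DHCR7 at 72 h in 6 of 8 fits (0.18 to 0.31), of SC5D at 24 h in 4 (-0.28 to -0.18), of FADS1 at 6 h without WT 27-2 or mut 65-2 (-0.67 to -0.37), and of PMVK at 72 h without WT 2-2 or mut 65-2 (0.17 to 0.28). SREBF2 lay higher in every mut library than in any WT library at each of the 4 states. In solvent the margin was narrow, with 451 CPM in the lowest mut and 449 CPM in the highest WT library. The enzymes did not share a direction. HMGCS1 was called lower at all 4 states and IDI1 at all but 72 h, whereas PMVK, CYP51A1, TM7SF2 and DHCR7 were called higher at 72 h.

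HMGCS1 (ENSG00000112972, chromosome 5, 43287470 to 43313512, minus strand) encodes the cytosolic HMG-CoA synthase. In WT solvent it had 319 CPM in 27-1, 318 in 27-2, 264 in 2-1 and 191 in 2-2, at 6 h 258, 266, 260.2 and 229.6 CPM, at 24 h 262, 270.2, 320.0 and 268 CPM, and at 72 h 272, 278, 237 and 259.6 CPM. In mut solvent it had 194 CPM in 1-1, 128 in 1-2, 226 in 65-1 and 110.2 in 65-2, at 6 h 213, 116, 186 and 127 CPM, at 24 h 215, 179, 197 and 151 CPM, and at 72 h 242, 122, 217 and 94.8 CPM. The genotypes did not overlap at 6 and 24 h and overlapped in solvent and at 72 h. The mut minus WT difference was -0.76 ± 0.23, -0.70 ± 0.24, -0.60 ± 0.23 and -0.74 ± 0.23 log2 from solvent to 72 h (SE, limma-voom adjusted p-values 0.0296, 0.0315, 0.0437 and 0.0135). Leaving out 1 library ended the call in 5, 5, 7 and 2 of 8 fits each, at 72 h without mut 1-2 or 65-2, with values of -0.95 to -0.49 there.

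IDI1 (ENSG00000067064, chromosome 10, 1039152 to 1049119, minus strand), the isopentenyl diphosphate isomerase, shares 643 exon bases with IDI2-AS1. In WT solvent it had 96.3, 100.1, 88.2 and 73.3 CPM in the order 27-1, 27-2, 2-1 and 2-2, at 6 h 91.8, 98.6, 104 and 93.1 CPM, at 24 h 113, 106, 126 and 117 CPM, and at 72 h 103, 99.1, 101 and 107 CPM. In mut solvent it had 71.9 CPM in 1-1, 56.2 in 1-2, 77.0 in 65-1 and 47.2 in 65-2, at 6 h 88.0, 53.9, 67.5 and 50.0 CPM, at 24 h 92.5, 72.4, 86.5 and 67.7 CPM, and at 72 h 110.4, 62.5, 93.1 and 54.0 CPM. Again the genotypes did not overlap at 6 and 24 h. The difference was -0.52 ± 0.18, -0.61 ± 0.18 and -0.54 ± 0.17 log2 for solvent, 6 h and 24 h (adjusted p-values 0.0490, 0.0124 and 0.0148 by limma-voom), and -0.42 ± 0.17 at 72 h (0.0549). The calls at 6 and 24 h were lost without the library 65-2 of that state, at -0.50 and -0.47, and that in solvent in 5 of 8 fits, at -0.63 to -0.39.

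SREBF1 was higher in mut cells by 0.56 ± 0.11, 0.56 ± 0.11 and 0.62 ± 0.11 log2 at 6, 24 and 72 h (limma-voom adjusted p-values 0.000529, 0.000338 and 7.36e-05), with no overlap of libraries, and in solvent the difference was 0.27 ± 0.11 (0.112). SREBF2 was higher by 0.18, 0.21, 0.29 and 0.35 log2, each ± 0.06, ordered from solvent to 72 h (0.0449, 0.0150, 0.000425 and 4.23e-05). The solvent call was lost without WT 27-2, at 0.10, and without mut 1-1, 65-1 or 65-2, and the call at 6 h without WT 27-2, at 0.18. TM7SF2 was higher by 0.68 ± 0.20 at 24 h and 1.17 ± 0.23 at 72 h (0.00922 and 0.000212) with no overlap, and by 0.16 ± 0.17 in solvent (0.598). INSIG1 was lower at 24 h by 0.47 ± 0.17 log2 (0.0340), with no overlap, and the other differences were -0.33 in solvent, -0.47 for 6 h and -0.25 for 72 h. Its call was lost without WT 24 h 27-2, 2-1 or 2-2 and without mut 24 h 1-2 or 65-2, at -0.53 to -0.39. Without the whole series 27-2, 1 gene was called lower in solvent (5.91% of all genes), FADS1 at -0.27, and 0 higher (4.86%). Without the series 1-2, limma-voom gave 0 calls in solvent, against 5.36% of all genes called higher and 5.04% called lower. An unadjusted p-value under 0.05 was found for 9 genes, a limit at which no share of all genes is given here.

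Of the calls made with library-size scaling, those named here were lost without a whole series. Without 27-2, the solvent differences of HMGCS1, IDI1 and SREBF2 became -0.68, -0.47 and 0.10 log2. HMGCS1 stood at -0.68 for 6 h and -0.62 for 24 h, INSIG1 at -0.47 for 24 h and DHCR7 at 0.22 for 72 h. In WT cells FDFT1 stood at -0.17 and -0.19 for 24 and 72 h, CYP51A1 at -0.18 for 72 h, and FDPS at -0.35 between 24 and 72 h. Without 1-2, HMGCS1 lost its call at all 4 states, with -0.66, -0.56, -0.59 and -0.61 log2, and IDI1 in solvent and at 6 h, with -0.48 and -0.54. SREBF2 stood at 0.21 in solvent, FADS1 at -0.59 for 6 h, SC5D and INSIG1 at -0.20 and -0.44 for 24 h, and DHCR7 at 0.23 for 72 h. In mut cells MSMO1 stood at 0.25 and 0.26 for 24 and 72 h, FADS1 at 0.56 for 72 h, and SREBF2 at -0.27 between 24 and 72 h.

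**Figure D4:**
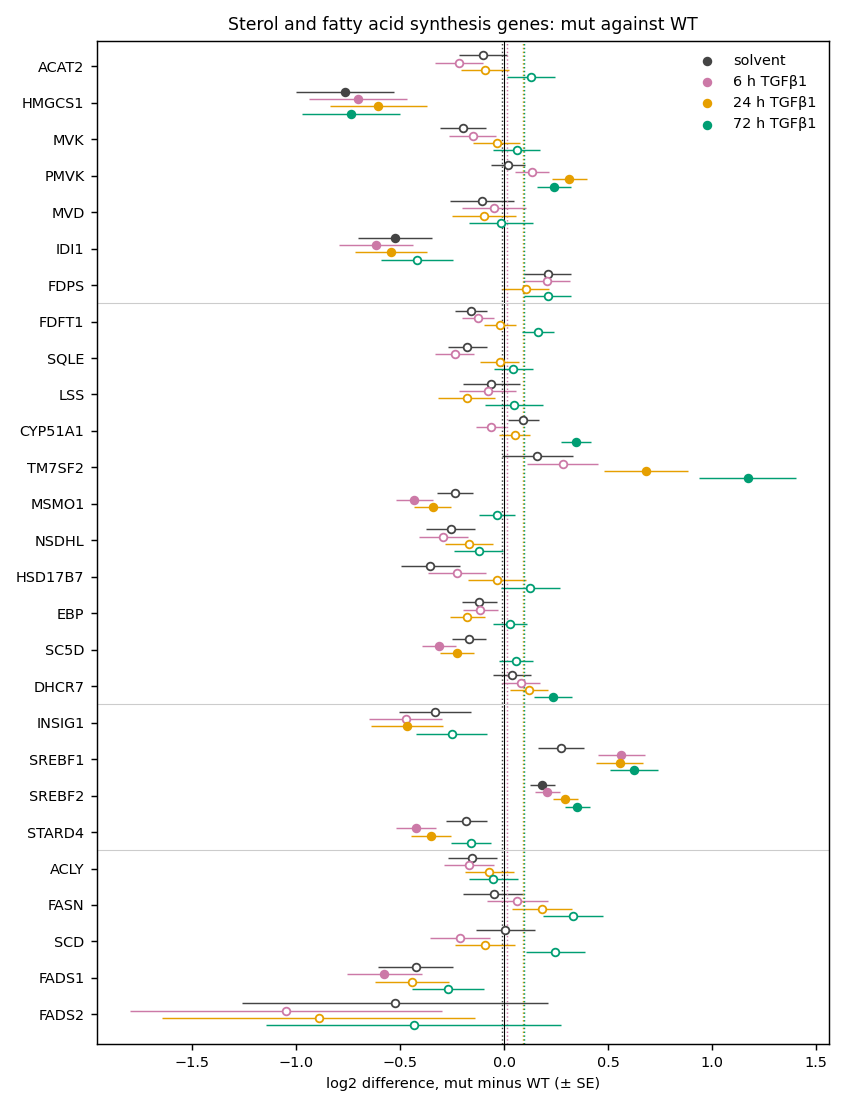
Log2 difference of mut minus WT libraries for each gene in solvent and after 6, 24 and 72 h of TGFβ1. Filled points were called by limma-voom at an adjusted p-value under 0.05, horizontal lines are SE and dotted lines the medians of all genes tested. HMGCS1 lies left of 0 and SREBF2 right of 0 at all 4 states.

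Synthesis genes in the mut clones lay higher in replication 1 than in replication 2. In mut clone 65, 22 of 27 genes were higher in replication 1 than in replication 2 at all 4 states, and 0 were lower at all states, with a median difference of 0.26 log2. In mut clone 1 these were 12 and 0 genes, with a median of 0.16. Of all genes tested, 14.6% were higher and 12.9% lower at all states in clone 65, and 8.27% and 7.97% in clone 1. In WT clone 27, 7 genes were higher and 5 lower, with a median of 0.03, and in WT clone 2 they were 3 and 2, with a median of 0.01, against 21.1% and 16.2% of all genes in clone 27 and 16.5% and 6.07% in clone 2. Both mut clones shared 11 such genes, namely ACAT2, DHCR7, FDFT1, HMGCS1, HSD17B7, IDI1, INSIG1, LSS, MSMO1, MVK and SQLE. The share of all genes that were higher in both mut clones in this way is not given here. For HMGCS1 the mean difference over states was 0.68 log2 in clone 1 and 0.79 in clone 65, against -0.03 in clone 27 and 0.19 in clone 2. For INSIG1 it was 0.48 and 0.60, against -0.13 and 0.09. Replication is a number in the labels, and what it stands for (a culture, a day or a library) is not given in the sources used here.

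Genotypes were therefore also compared within each replication. For HMGCS1 the mut minus WT difference was -0.47, -0.38, -0.49 and -0.15 log2 from solvent to 72 h in replication 1, and -1.06, -1.03, -0.71 and -1.32 in replication 2. For IDI1 these values were -0.31, -0.35, -0.41 and -0.01, and -0.74, -0.89, -0.67 and -0.83. INSIG1 had -0.04, -0.22, -0.31 and 0.17, and -0.62, -0.73, -0.62 and -0.67, so that its sign at 72 h differed between the replications. The differences of SREBF1 were closer, with 0.32, 0.57, 0.47 and 0.64, and 0.23, 0.56, 0.64 and 0.61, as were those of SREBF2 with 0.15, 0.20, 0.19 and 0.34, and 0.22, 0.22, 0.40 and 0.36. TM7SF2 differed by 1.16 and 1.18 at 72 h. In replication 1 alone HMGCS1 was called in solvent and at 24 h, and IDI1 and INSIG1 at 24 h only. In replication 2 alone HMGCS1 and IDI1 were called at all 4 states and INSIG1 at all but solvent. SREBF1 and SREBF2 were called at 24 and 72 h in each replication, and SREBF1 at 6 h in replication 1 as well. TM7SF2 was called at 72 h in each. At 72 h, replication 1 alone gave 12 genes higher in mut and 0 lower, among them FASN, SCD, SQLE, FDFT1, LSS and FDPS (17.5% and 10.1% of all genes). Replication 2 alone gave 4 higher and 4 lower (11.5% and 6.03%).

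Other lipid genes were looked at for comparison, of which 46 of 47 passed the filter and PLIN2 did not. In WT cells at 72 h, 6 of the 46 were higher and 25 lower, with a median of -0.28 log2, against 13.9% and 38.4% of all genes. In mut cells 3 were higher and 15 lower, with a median of -0.10, against 7.81% and 16.3%. With TMM factors these counts were 8 and 20 in WT (21.5% and 23.3% of all genes) and 6 and 11 in mut (10.7% and 9.91%). Of 13 genes of fatty acid activation, storage and oxidation, 10 fell in WT and 9 in mut at 72 h, where 38.4% and 16.3% of all genes fell. With TMM factors they were 10 and 8, against 23.3% and 9.91%. Among them were CPT2, the inner carnitine palmitoyltransferase, at -0.97 ± 0.09 in WT and -0.54 ± 0.08 in mut, and HADHB, a subunit of the mitochondrial trifunctional protein, at -0.94 and -0.63. The genes of SREBP processing gave 1 higher and 3 lower calls of 4 in WT at 72 h and 0 in mut cells, beside the same shares of all genes, with SCAP at -0.41 ± 0.06 in WT and -0.06 ± 0.06 in mut, an interaction of 0.35 ± 0.09 that was called. With TMM factors this list had 1 higher and 1 lower call in WT and 1 higher in mut.

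Among the called other lipid genes, ABCG1 had the most positive and NR1H3 the most negative change at 72 h in both genotypes. ABCG1, a sterol efflux transporter, rose from 19.1 ± 6.57 to 35.7 ± 13.9 CPM in WT at 72 h, by 0.87 ± 0.28 log2, and from 33.9 ± 6.78 to 55.2 ± 15.5 CPM in mut cells, by 0.68 ± 0.24. NR1H3, a liver X receptor, fell from 7.88 ± 2.16 to 2.41 ± 0.39 CPM in WT, a change of -1.67 ± 0.22 log2, and from 12.1 ± 0.36 to 6.90 ± 1.53 CPM in mut cells, a change of -0.85 ± 0.15. It shares 189 exon bases with ACP2 on the other strand, so that reads there cannot be told apart. All changes of other lipid genes given with an SE were called by limma-voom, except that of SCAP in mut cells. In solvent ABCG1 was higher by 0.87 ± 0.28 in mut cells and SOAT1, which esterifies cholesterol, lower by 0.47 ± 0.09. At 72 h NR1H3 was higher in mut cells by 1.48 ± 0.22 and the desaturase SCD5 lower by 0.83 ± 0.17. The interaction at 72 h was 0.82 ± 0.26 for NR1H3 and -0.42 ± 0.11 for DHDDS, a subunit of the dolichol-forming prenyltransferase.

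**Figure D5:**
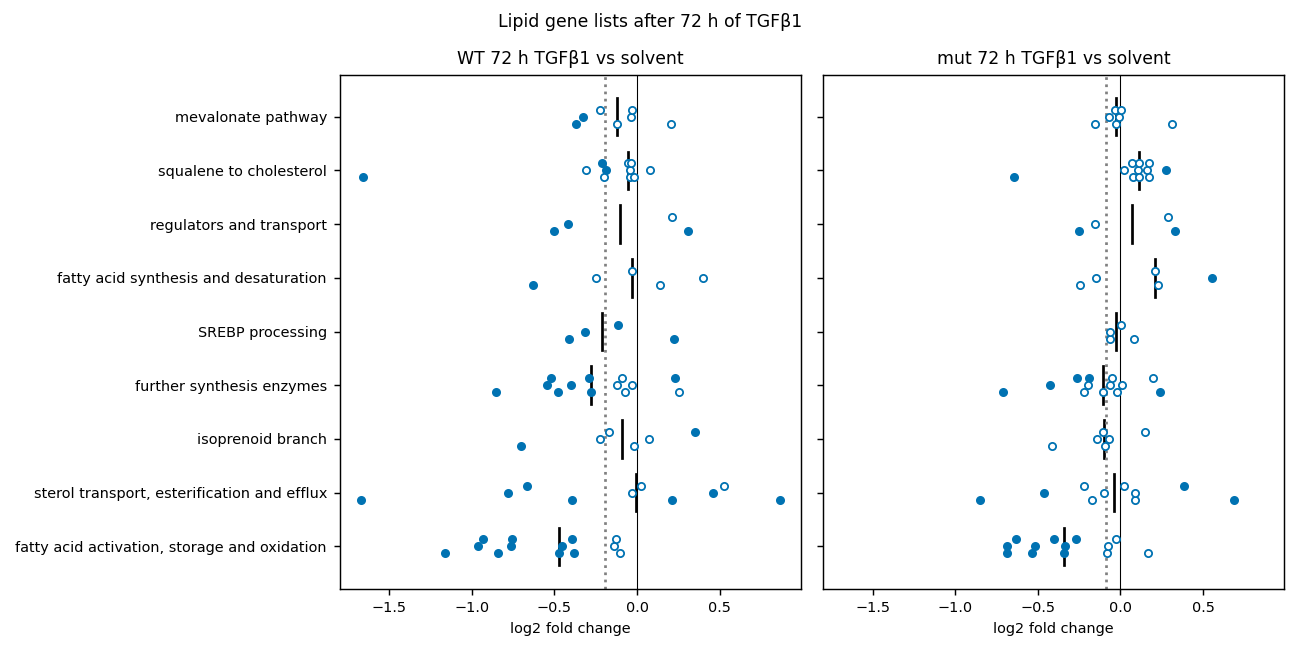
Log2 fold change after 72 h of TGFβ1 for the 4 lists of synthesis genes (top) and 5 lists of other lipid genes (bottom), in WT (left) and mut clones (right). Each point is a gene, filled where called by limma-voom, black bars are list medians and the dotted line is the median of all genes tested. In WT clones the list of fatty acid activation, storage and oxidation has its median at -0.47.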

How the data were processed

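Transcript abundance was measured by RNA-seq in 32 libraries of MCF10A clones. The deposited values are raw read counts per gene, which the authors made by trimming with Trimmomatic, aligning read pairs to Ensembl GRCh38 and counting with STAR, without normalization. Versions of these tools are not given in the sources used here. Gene symbols and positions came from GENCODE release 44, which named 17763 of 17788 genes.

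Groups, clones and replication numbers were taken from the labels. Libraries of a group differed by more than counting noise (smallest chi-square per degree of freedom 11.5) and each was counted as a sample. As in the study's methods, counts were scaled by library size and fitted in limma 3.58.1 (voom, R 4.3.3), using the group as condition (~0 + condition) and all libraries. The low-count filter was filterByExpr (edgeR 4.0.16) with a count minimum of 10 and a total of 15. Genes were tested two-sided, with Benjamini-Hochberg adjustment over 14865 genes, and called under 0.05. The filter and the interactions were chosen here. CPM used the library total, and log2 CPM used a prior count of 0.5.

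Deviations from group means correlated between libraries of 1 series (mean 0.303, minimum 0.0283). The mean correlation was 0.0184 for 1 clone with another replication number and -0.154 for the other clone of the genotype. Because deviations from a shared group mean pull such correlations below 0, these values do not show that clones had no effect. The pairing itself comes from the labels, since the libraries of a series share a clone and a number. The pairing was used within genotypes, as a replicate block.

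The genes and lists were chosen with earlier results of these data known. Genes given by library were SREBF1, SREBF2 and INSIG1 and the 2 called genes of largest absolute change in each of 5 comparisons. Other lipid genes were named where called with the most positive or most negative change in these comparisons, and CPT2, HADHB and SCAP were named after their values were seen. The promoter rule gave SREBF2, and the windows of TM7SF2, IDI1 and INSIG1 were added after seeing the data. Alternatives were TMM factors, edgeR (quasi-likelihood, with TMM factors), DESeq2 1.42.0 (Wald, with its own scaling factors), no filter, the replicate block, sums over the replications of a clone, leaving out each library, a minimum absolute log2 change of 1 and a prior count of 2. Fits with TMM factors and the block, without the series 27-2 or 1-2, with the replication number as a replicate block, and on each replication alone were chosen after seeing the data. The tests were tried on simulated counts with known changes, for WT at 72 h against solvent only. These counts were drawn without effects of clone or series, so that they do not cover the comparisons between genotypes. Floors of 3 counts cover counting error alone, because PCR copies of a molecule could not be told apart.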

Additional observations from a re-analysis of the deposited data

Results flagged for a closer look

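In 80 sets of 4 libraries, made up of 9 genes and the mean over the 27 genes in 8 groups, 6 values lay far from the other 3 libraries by Dixon's criterion, which compares the gap to the nearest library with the range on the log2 scale. Chance alone would single out about 1 set in 20. FADS2 was added after its values were seen, and without it 3 of 72 sets had such a value, which is no more than that rate. Of the 6 values, 5 belong to the series 27-2. FADS2 had 233.2 CPM in WT 6 h 27-2 (others 24.9 to 28.03), 216.1 CPM in WT 24 h 27-2 (24.9 to 27.7) and 179.2 CPM in WT 72 h 27-2 (23.0 to 31.5). FADS1, its neighbour on the other strand, had 109.4 CPM in WT 6 h 27-2 (58.9 to 65.4). SREBF2 had 354.8 CPM in WT solvent 27-2 (439 to 449). HMGCS1 had 320.0 CPM in WT 24 h 2-1 (262 to 270.2).

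The response to 72 h of TGFβ1 differed between genotypes for TM7SF2, with an interaction of 1.0103 log2 (limma-voom adjusted p-value 0.0206), at -1.66 in WT and -0.65 in mut cells.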

How the results depend on the processing

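No call of a gene changed direction under any setting. Counts of called synthesis genes moved by over 1.5 times as follows, in the order WT against solvent, mut against solvent, 72 h against 24 h, mut against WT and interaction. With TMM factors, edgeR and DESeq2 alike, WT 24 h had 16 calls in place of 9, mut 24 h 5 in place of 3 and WT 72 h against 24 h 6 in place of 3, and WT 6 h had 1, 1 and 2 in place of 0. The edgeR fit used TMM factors too and DESeq2 its own scaling factors, so these settings share a change of scaling. The replicate block gave 2 at WT 6 h, 16 at WT 72 h, 11 at mut 24 h, 10 at mut 72 h, 9 and 5 for 72 h against 24 h in WT and mut, and 3 and 6 interactions at 24 and 72 h. TMM factors with the replicate block gave 6 at WT 6 h, 19 at WT 24 h, 3 at mut 6 h, 12 at mut 24 h, 13 at mut 72 h, 10 and 5 for 72 h against 24 h, and 3 interactions at 72 h. Summing replications gave 1 at mut 24 h, 0 for mut 72 h against 24 h and 0 interactions at 72 h, from fewer samples. A minimum absolute log2 change of 1 left 1 gene at WT 72 h and 1 for mut against WT at 72 h, and 0 elsewhere. Without a filter, mut against WT in solvent had 1 call. Without the series 27-2 there were 5 and 2 calls for 72 h against 24 h, 1 for mut against WT in solvent and 2 interactions at 72 h. Without the series 1-2 there were 1 at WT 6 h, 3 at mut 72 h, 0 for mut 72 h against 24 h, 0 and 5 for mut against WT in solvent and at 6 h, and 2 interactions. Replication 1 alone gave 1, 2, 6 and 12 calls for mut against WT from solvent to 72 h, and replication 2 alone gave 6 at 24 h. By the same limit of 1.5 times, 55 counts of synthesis genes moved over these settings and 97 did not. Of the counts over all genes tested, 40 moved and 99 did not. A moved count is therefore not read as particular to the synthesis genes. Shares of all genes are not set beside the counts in this paragraph, so the counts do not show how the synthesis genes stood against all genes. The causes were not tested. With the series as a replicate block, no single call was lost, and the replication number as a replicate block gave 3, 11, 11 and 9 calls for mut against WT from solvent to 72 h.

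Leaving out 1 library gave 0 to 3 calls at mut 24 h (0 without mut 24 h 1-1 or 65-1 or mut solvent 65-1), 3 to 9 at mut 72 h (9 without mut 72 h 65-2), 1 to 6 for WT 72 h against 24 h (6 without WT 24 h 27-2), 0 to 1 for mut 72 h against 24 h, 0 to 5 for mut against WT in solvent (0 without WT 27-2 or mut 65-2), 5 to 10 at 6 h (5 without WT 27-2 or mut 65-2), 6 to 10 at 24 h (6 without mut 65-2) and 0 to 3 interactions at 72 h (0 without WT 72 h 27-2). Over the fits without 1 library, 36 counts of synthesis genes moved and 108 did not, beside 33 and 111 of the counts over all genes. Of the calls of single genes, 452 were kept and 107 lost over the other settings, and 369 kept and 111 lost over fits without 1 library, all with their direction. The mean log2 CPM of the genes moved by more than the replicate SD in 3 of 16 settings. With 2 clones per genotype, a difference between genotypes cannot be told apart from one between clones.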
